A study of Rattus norvegicus with 48 samples.

Results

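Collagen genes were followed by RNA-seq in primary cultures of rat cortex. The members were all rows of the deposited expression table whose symbol consists of Col, a number, a and a number. Among 30211 rows there were 42 such genes. The 32 with a mean of at least 0.5 CPM (read counts scaled to a common library size) over all libraries are described here, and the other 10 were counted and left out. Col6a4 (mean 0.575 CPM) lay just inside that limit and Col7a1 (mean 0.470 CPM) just outside it, and Col23a1 was listed at 0 in each of the 48 libraries. Col1a2, Col6a3 and Col21a1 are not analysed here.

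The 48 libraries formed 16 groups of 3. All cultures were prepared from the cortices of embryonic day 18 Sprague-Dawley fetuses and had been kept for 21 days in vitro. Control cultures received no drug, Tat cultures received the HIV-1 transactivator protein (6 ng/mL, 48 h), Cocaine cultures received cocaine (25 µM, 24 h) and Tat-Cocaine cultures received both. Each of 4 compounds was given by itself, together with Tat, and together with both agents. These were 4-octyl-itaconate (4OI, 250 µM), a cell-permeable ester of the macrophage metabolite itaconate; Amlexanox (25 µM), an inhibitor of the kinases TBK1 and IKK-epsilon; Tazemetostat (3 µM), an inhibitor of the histone methyltransferase EZH2; and Senicapoc (1 µM), a blocker of a calcium-activated potassium channel. Groups are named by their treatments, so that Tat-Cocaine-4OI received all 3 agents. The study asked how Tat and cocaine change the transcriptome of brain cells and how 4OI modifies those changes.

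Collagens are extracellular proteins in which 3 chains wind into a triple helix, and many types need chains from different genes. Fibrillar collagens (types I, III, V, XI and XXVII) form fibres, type IV forms the sheet of basement membranes around vessels and over the brain surface, and type VI forms beaded filaments. FACIT collagens (types IX, XII, XIV, XVI, XIX, XX and XXII) sit on the surface of fibrils or at interfaces. In the brain, meningeal and perivascular fibroblasts, mural cells and endothelium are known as the main producers, while astrocytes, microglia and neurons make selected chains. Chains are hydroxylated and folded in the endoplasmic reticulum, trimmed outside the cell and crosslinked by lysyl oxidases.

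Promoter sequence was available for 24 of the 32 genes from RefSeq (assembly GRCr8), as the 250 bases before each gene's start. Type IV genes lie head to head in pairs on opposite strands, and the Col4a1-Col4a2 stretch is shown because the results of both partners are set side by side in the next paragraphs. Only 76 bases separate the starts of Col4a1 and Col4a2 (chromosome 16), against 412 bases for Col4a3 and Col4a4 (chromosome 9) and 1414 bases for Col4a5 and Col4a6 (chromosome X). The intergenic stretch of Col4a1 and Col4a2 is at chr16:84885521-84885596 on the plus strand. The promoters of Col6a1 (chr20:11905440-11905689, plus strand), Col11a2 (chr20:4817649-4817898, minus strand) and Col26a1 (chr12:25429146-25429395, plus strand) are given as those of genes that Tat raised, Tat lowered and cocaine lowered. Capitals mark a CCAAT box (CCAAT) or a GC box (GGGCGG), read on either strand, with overlapping GC boxes running together.
Col4a1-Col4a2: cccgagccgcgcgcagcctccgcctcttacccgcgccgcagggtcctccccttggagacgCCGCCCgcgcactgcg
Col6a1: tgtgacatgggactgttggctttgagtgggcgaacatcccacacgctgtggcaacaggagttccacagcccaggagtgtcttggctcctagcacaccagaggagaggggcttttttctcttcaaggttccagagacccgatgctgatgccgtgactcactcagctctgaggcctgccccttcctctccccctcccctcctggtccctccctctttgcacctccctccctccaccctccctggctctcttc
Col11a2: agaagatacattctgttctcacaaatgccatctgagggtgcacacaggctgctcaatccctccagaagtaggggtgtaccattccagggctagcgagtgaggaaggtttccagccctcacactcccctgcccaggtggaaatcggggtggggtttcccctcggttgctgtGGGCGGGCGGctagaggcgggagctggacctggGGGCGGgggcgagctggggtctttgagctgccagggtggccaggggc
Col26a1: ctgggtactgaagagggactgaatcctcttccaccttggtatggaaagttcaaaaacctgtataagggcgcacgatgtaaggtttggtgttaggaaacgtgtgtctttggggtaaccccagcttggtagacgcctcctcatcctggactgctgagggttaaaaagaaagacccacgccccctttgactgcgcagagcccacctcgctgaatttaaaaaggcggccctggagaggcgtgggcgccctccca
The GC box was found in 15 of the 24 collagen promoters and in 30.5% of the 33469 promoters in the table, and the CCAAT box in 7 of 24 and in 34%. The 24 are not all separate, since the 250 bases of Col4a1 and of Col4a2 share the 76 bases shown. The GC box there counts for both genes, and the CCAAT boxes counted for these genes lie outside the stretch shown. The AP-1 motif TGANTCA was found in 1 of 24, that of Col6a1, against 6.34% of all promoters. The TATA motif TATAAA was found only in Col17a1 among the 24, against 12.9%, and the NF-kB motif in Col11a2 and Col27a1, against 3.54%. Col11a2 held 3 GC boxes in the stretch shown, and the stretches of Col6a1 and Col26a1 held neither capitalised motif. A match of letters is a description and not a measured site.

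Depth, read off from the value of 1 read in each library, was between 17.5 and 29.1 M reads (median 22.4 M, M standing for 1e6), so that 0.5 CPM stood for 8.58 to 15 reads. The labels call the material neuronal culture, and the libraries were those of a mixed culture. Summed over lists of known markers, group means were 7360 to 12530 CPM for astrocytes, 1552 to 4832 for neurons, 922 to 4133 for microglia, 394 to 1168 for mural cells and 220 to 462 for fibroblasts. The mural sum was mostly Tagln (median 462 CPM). Pdgfrb had a median of 45.9 CPM, and Rgs5, Kcnj8 and Abcc9 of 0.402, 0.743 and 0.558 CPM. The fibroblast sum was mostly Fbln2 (165.7 CPM), Thbs2 (54.4 CPM) and Fbln1 (45.5 CPM), with Dcn at 1.43 and Lum at 0.504 CPM. These sums are therefore not read as amounts of mural cells or fibroblasts. Endothelial markers summed to 4.82 to 18.2 CPM per library, and Cldn5, a tight-junction gene of brain endothelium, was at 0 in 25 of 48 libraries and reached at most 0.1003 CPM. Libraries within a group correlated at 0.963 to 0.996, and none were alike enough to be the same library. Cocaine replicate 3 stood apart with oligodendrocyte markers at 25395 CPM, against 880 CPM in the lowest library of its group. Nothing states that replicates were separate cultures, so the tests measure the spread between these libraries. In bulk samples fewer cells of a type and less RNA per cell cannot be told apart.

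The collagen genes with the most reads over all libraries were Col6a2 (161 CPM), Col4a1 (159 CPM), Col1a1 (131 CPM), Col4a5 (125 CPM) and Col12a1 (113 CPM). These are means of CPM, which are not scaled to transcript length, and levels of different genes are therefore not ranked against each other. Summed over the 32 genes, collagens made up 1249 ± 377 CPM in Control and 1921 ± 367 CPM in Tat (SD, n = 3 each). The sum was 965 ± 88.5 CPM with 4OI, 1207 ± 289 with Tat-4OI, 819 ± 231 with Amlexanox and 1201 ± 434 with Cocaine. It was 1585 ± 297 CPM with Tat-Cocaine and 1548 ± 594 with Tat-Cocaine-4OI. Individual genes moved in both directions under these sums.

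Tat moved collagen genes in both directions. Over its 5 backgrounds (Control and the 4 compounds), 15 libraries with Tat were set against 15 without, none of them with cocaine. There 12 collagen genes rose and 9 fell of 32 (limma, a linear model of log2 values, at a false discovery rate, FDR, under 0.05). This was 65.6% of them against 56.5% of the 15890 genes tested (29.9% higher and 26.7% lower). The median log2 fold change was 0.05 for the collagens and -0.003 for all genes, so higher and lower members were nearly balanced. By class, 3 of 8 fibrillar chains rose and 3 fell, 2 of 6 type IV chains rose and 2 fell, 4 of 9 FACIT chains rose and 3 fell, and 2 of 3 type VI chains rose and 1 fell. The transmembrane chain Col17a1 rose. Both type VIII chains, Col18a1, Col25a1 and Col26a1 were not called.

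The largest rise was that of Col14a1, a FACIT collagen of fibril surfaces. The 15 libraries without Tat or cocaine held 2.23 to 9.44 CPM (median 6.67) and the 15 with Tat and no cocaine 14.2 to 158 CPM (median 69.2). The 2 sets did not overlap, and the log2 fold change was 3.35 (95% CI 2.96 to 3.74, FDR 3.75e-16). The Cocaine libraries, outside this comparison, had a mean of 12.0 CPM and were each above every Control library. Cocaine against Control was not called for this gene (log2 fold change 0.80, 95% CI -0.07 to 1.67, FDR 0.457). In the single comparison of Tat with Control, Control libraries held 6.67, 4.66 and 9.26 CPM. Tat libraries held 158, 126 and 57.4 CPM, a log2 fold change of 3.88 (FDR 2.87e-08). Every Tat library was above every matched library without Tat in 5 of 5 backgrounds.

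Col9a3, which encodes a chain of the FACIT collagen IX, was also raised. Control libraries held 6.14, 5.10 and 3.40 CPM and Tat libraries 23.1, 24.1 and 24.1 CPM. The groups did not overlap and the 3 Tat values were nearly equal, with a log2 fold change of 2.21 (95% CI 1.69 to 2.72, FDR 5.47e-08). Over the 5 backgrounds it was 1.44 (FDR 1.07e-12), and the matched groups were apart in 4 of 5 backgrounds, 4OI being the exception. The other chains of type IX moved the opposite way. Col9a2 was at 1.78 to 2.91 CPM without Tat and 1.02 to 2.28 CPM with Tat (log2 fold change -0.48, FDR 1.59e-07), and Col9a1 had a mean of 1.39 CPM without and 0.644 CPM with Tat (-0.72, FDR 0.000251). The ratio of Col9a3 to Col9a2 CPM was 1.17 to 2.62 in Control libraries and 14.2 to 19.6 in Tat libraries.

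**Figure D1:**
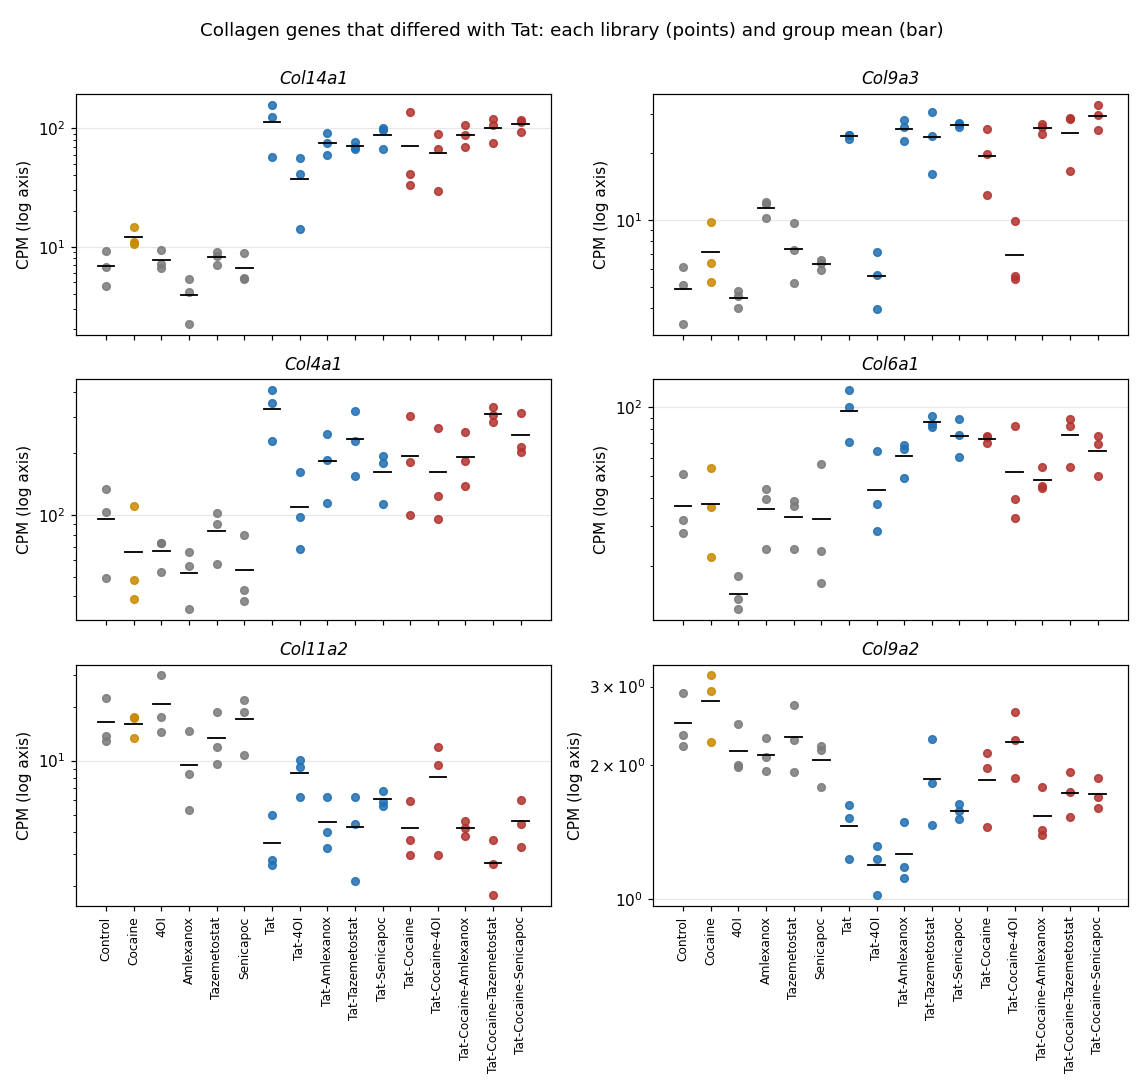
Level of 6 collagen genes in every library (points, CPM on a log axis) for the 16 groups, with bars at group means; grey marks groups without Tat or cocaine, gold Cocaine, blue Tat without cocaine and red Tat with cocaine. Col14a1 was at 2.23 to 9.44 CPM in the 15 libraries without Tat or cocaine and at 14.2 CPM or more in the 15 with Tat and no cocaine, while Col11a2 and Col9a2 were lower with Tat.

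Basement membrane chains were also called in both directions. Col4a1, part of the common type IV network, was at 49.2, 103 and 134 CPM in Control and 353, 407 and 230 CPM in Tat. The groups did not overlap, and over the 5 backgrounds the log2 fold change was 1.48 (95% CI 1.08 to 1.87, FDR 9.81e-08). Matched groups were apart in 4 of 5 backgrounds. In the exception, Tat-4OI against 4OI, a log2 fold change of 0.64 (95% CI -0.24 to 1.52, FDR 0.457) was not called for Col4a1. Its head-to-head partner Col4a2 rose from a mean of 58.2 to 86.3 CPM (0.53, 95% CI 0.22 to 0.85, FDR 0.00412), and matched groups overlapped in each background. The Col4a1 to Col4a2 ratio was 1.06 to 1.45 in Control and 2.71 to 3.01 in Tat. Because the CPM are not scaled to length, only the change of this ratio between libraries is read, which is a description with no test. In Tat-4OI it was 1.33 to 1.71.

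The remaining type IV chains, of the networks found in specialised basement membranes, were lower or uncalled over the 5 backgrounds. Col4a5 was at 150, 153 and 191 CPM in Control and 98, 103 and 103 CPM in Tat, without overlap (log2 fold change -0.69, FDR 0.00476; over 5 backgrounds -0.32, FDR 0.000869). Col4a3 was at 1.27, 3.14 and 3.54 CPM in Control and 0.659, 0.966 and 0.851 CPM in Tat, again without overlap (-1.17, FDR 0.00481; over 5 backgrounds -0.36, FDR 0.0224). Each Tat library was below each matched library in only 2 of 5 backgrounds for Col4a5 and 1 of 5 for Col4a3. In Tat-4OI against 4OI the log2 fold change was -0.19 for Col4a5 and -0.12 for Col4a3, neither called. Their partners Col4a6 (0.06, FDR 0.689) and Col4a4 (-0.25, 95% CI -0.54 to 0.03, FDR 0.127) did not pass over the 5 backgrounds.

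Type VI chains Col6a1 and Col6a2 rose together. Col6a1 was at 32, 51 and 27.9 CPM in Control and 70.5, 119 and 100.1 CPM in Tat, and Col6a2 at 97.5, 129 and 109 against 252, 316 and 222 CPM. For both genes each Tat library was above each matched library in 5 of 5 backgrounds. Over those backgrounds the log2 fold change was 1.28 for Col6a1 (95% CI 0.96 to 1.60, FDR 2.98e-08) and 1.14 for Col6a2 (95% CI 0.91 to 1.37, FDR 2.89e-10). Col6a4, near the detection limit at 0.701 CPM without Tat, was lower by a small amount (-0.27, FDR 0.0155). The level of Col6a2 is uncertain, since its value stood for a whole number of reads and a further fraction near 1 in 2 in 39.6% of libraries.

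Among fibrillar chains over the 5 backgrounds, the called members of type V rose and those of type XI fell. Col5a2, which with Col5a1 forms the collagen that starts fibril assembly, had a mean of 60.8 CPM without Tat and 95.1 CPM with it (log2 fold change 0.66, FDR 5.8e-07). Col5a1 rose from 28.8 to 40 CPM (0.47, FDR 0.00386), while Col5a3 was not called (0.05, FDR 0.569). For Col5a1 the matched groups overlapped in each background. Col11a2, a type XI chain best known from cartilage, was at 22.5, 13.8 and 12.9 CPM in Control and 2.79, 2.62 and 4.96 CPM in Tat. The groups did not overlap, with a log2 fold change of -2.10 (FDR 0.000182), and of -1.43 over 5 backgrounds (95% CI -1.79 to -1.07, FDR 3e-08). Col11a1 fell by a smaller amount, from 70.3 to 56.5 CPM (-0.27, FDR 0.0331), a call that was lost in 11 of 30 fits that each left out 1 library.

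Col1a1, the main chain of type I collagen, was at 43.4, 67.6 and 204 CPM in Control and 207, 272 and 103 CPM in Tat. The groups overlapped because the third Control library lay above the third Tat library, and that single comparison was not called (log2 fold change 1.08, FDR 0.195). With 15 against 15 libraries it was (75.7 to 148 CPM, 1.03, 95% CI 0.49 to 1.58, FDR 0.00159). The other calls over the 5 backgrounds were small. Col22a1 (0.52, FDR 0.00163) and Col12a1 (0.34, FDR 0.0199) were higher, and Col27a1 (-0.41, FDR 0.000969) and Col16a1 (-0.31, FDR 0.00943) lower. Of the 21 calls, only that of Col11a1 was lost on leaving out a library.

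**Figure D2:**
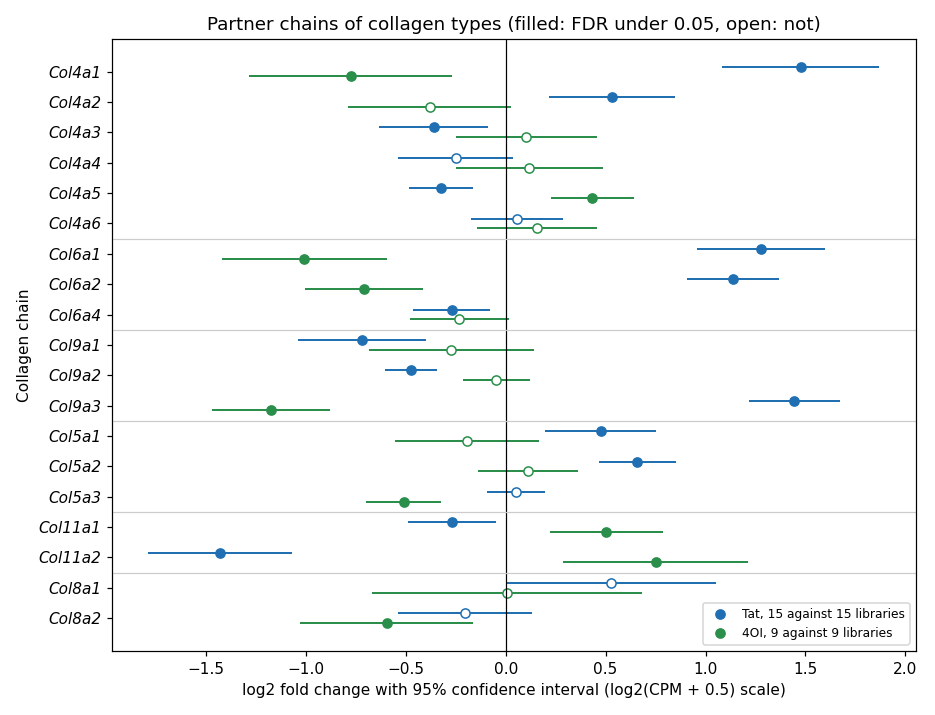
Log2 fold change with 95% confidence interval for chains of collagen types IV, VI, IX, V, XI and VIII, with Tat over 5 backgrounds (blue) and with 4OI over 3 backgrounds (green); filled points had FDR under 0.05. With Tat, Col4a1 (1.48) and Col4a2 (0.53) differed in size, and Col9a3 (1.44) and Col9a2 (-0.48) in direction.

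Without pooling, Tat against Control called 7 collagen genes higher and 5 lower, 37.5% of the members against 21.3% of all genes. A set of 3 of these calls, in Col17a1 (1.65, FDR 0.0106), Col5a2 (0.71, FDR 0.015) and Col11a1 (-0.69, FDR 0.0374), depended on single libraries. Col17a1, a transmembrane collagen of epithelial attachment, was at 0.355, 4.37 and 3.88 CPM in Tat against 0.192, 0.490 and 0.363 CPM in Control, so the groups overlapped, and its call was lost without Tat replicate 2, Tat replicate 3 or Control replicate 1. The Col5a2 call was lost without Tat replicate 2, Control replicate 1 or Control replicate 2.

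The same question within each compound gave counts of 4 higher and 1 lower for Tat-4OI against 4OI (5.18% of all genes called), 9 and 3 for Tat-Amlexanox against Amlexanox (39.6%), 6 and 2 for Tat-Tazemetostat against Tazemetostat (16.1%) and 5 and 2 for Tat-Senicapoc against Senicapoc (16%). Col14a1 and Col6a2 were called higher in each of the 5 backgrounds. The log2 fold change of Col14a1 was 2.01 with 4OI (7.71 to 37.3 CPM, FDR 0.00394), 4.15 with Amlexanox (3.89 to 75.3 CPM), 3.05 with Tazemetostat and 3.66 with Senicapoc. With 4OI, that call was lost without Tat-4OI replicate 2, when 0 of the 5 calls were left. Counts there were 1 without 4OI replicate 1 and 3 without 4OI replicate 3 or Tat-4OI replicate 3. With Tazemetostat the count was 3 without Tat-Tazemetostat replicate 2, and with Senicapoc it was 3 without Senicapoc replicate 1 and 4 without Tat-Senicapoc replicate 2. Tat-Amlexanox against Amlexanox also called Col1a1 (1.61, FDR 0.0334), Col22a1 (1.19, FDR 0.00361), Col4a6 (0.73, FDR 0.0238) and Col26a1 (-1.23, FDR 0.00115). The Col1a1 call was lost without Amlexanox replicate 2 or 3, or Tat-Amlexanox replicate 1 or 2. That of Col4a6 was lost without Amlexanox replicate 3 (0.37, FDR 0.277), or Tat-Amlexanox replicate 1 or 2. With replicate numbers as a block, Col6a1 (0.79, FDR 0.0165), Col11a2 (-0.92, FDR 0.0330) and Col25a1 (-0.65, FDR 0.0462) were called too.

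Tat with cocaine gave calls in both directions too. Tat-Cocaine against Control, which shares its controls with the Tat comparison, called 4 collagen genes higher and 5 lower (14.9% of all genes). Col14a1 was at 33, 41.4 and 138 CPM in Tat-Cocaine (log2 fold change 3.02, FDR 5.12e-06) and Col9a3 at 12.9, 19.9 and 25.5 CPM (1.87, FDR 2.15e-06), in each case above all Control libraries. Col26a1 (-1.39, FDR 0.000511), Col11a2 (-1.86, FDR 0.00114), Col4a5 (-0.76, FDR 0.00292), Col4a3 (-1.18, FDR 0.00607) and Col4a4 (-1.24, FDR 0.00611) were lower. The Col5a2 (0.67, FDR 0.03) and Col6a1 (1.02, FDR 0.0468) calls were lost in 4 and 5 of 6 fits without 1 library, and those of Col4a3 and Col4a4 without Control replicate 3 and in the compared groups alone. With the replicate block, Col6a2 (0.61, FDR 0.0207), Col4a1 (1.00, FDR 0.0457) and Col11a1 (-0.66, FDR 0.0447) were called too.

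**Figure D3:**
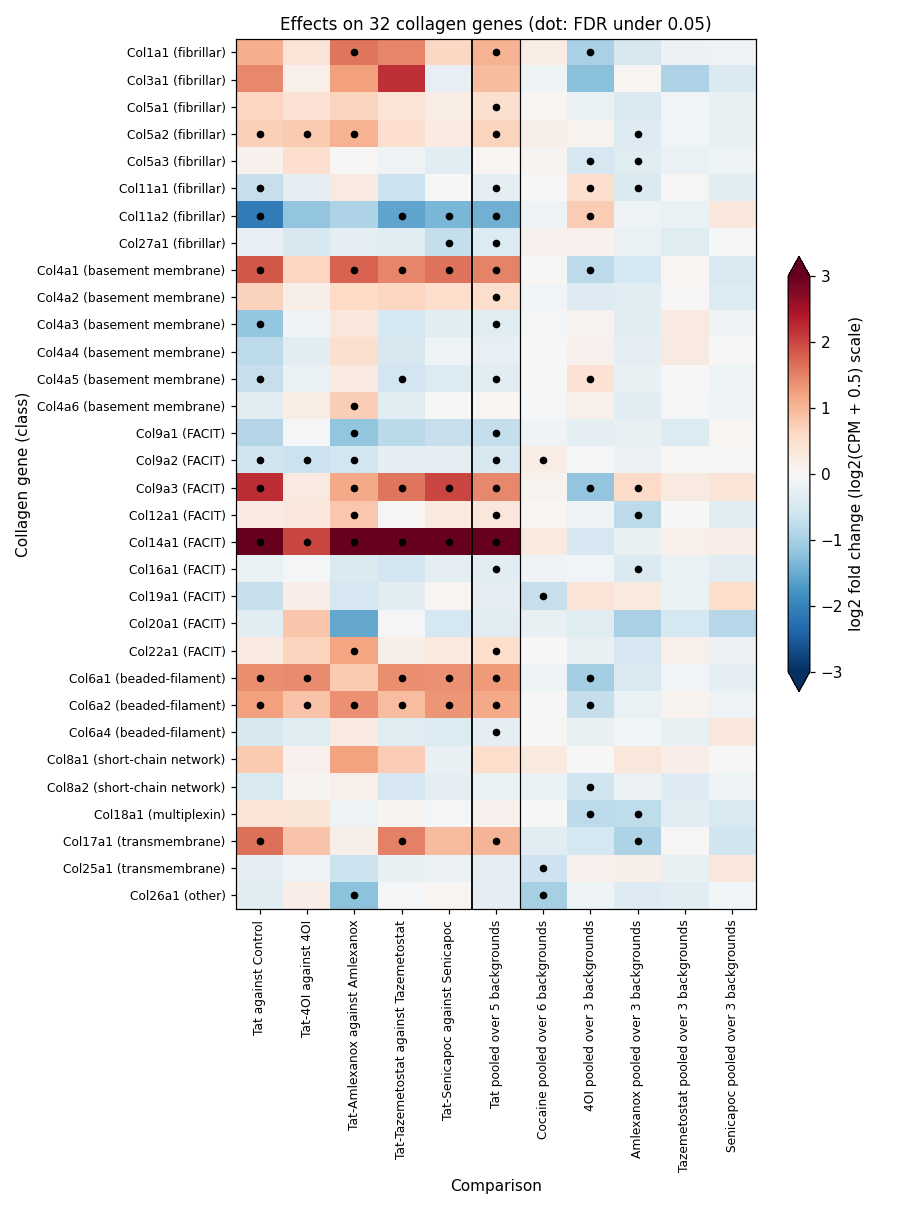
Log2 fold change (colour, -3 to 3) of the 32 collagen genes, ordered by class, in 5 Tat comparisons and 6 comparisons pooled over backgrounds; dots mark FDR under 0.05. Tat columns hold 12 higher and 9 lower genes when pooled, and Tazemetostat and Senicapoc hold 0 calls when pooled.

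Genes around collagen assembly were read from lists of the pathway, beside 29.9% of all genes higher and 26.7% lower with Tat over 5 backgrounds. In that comparison 9 of 18 folding and modification genes rose and 1 fell. Creb3l1, a transcription factor that acts on collagen genes from the endoplasmic reticulum, rose from 13.9 to 29.4 CPM (log2 fold change 1.00), the prolyl 4-hydroxylase subunits P4hb and P4ha2 rose by 0.48 and 0.47, and Fkbp14 fell by 0.15. Of 12 processing and crosslinking genes 5 rose and 2 fell, among them Lox (23.8 to 44.4 CPM, 0.89) and Adamts14, a procollagen N-proteinase (1.24), against Loxl4 (-0.61). Of 16 collagen-binding matrix genes 6 rose and 4 fell, with Thbs2 (1.80) and Lamc1 (0.91) against Ogn (-1.26) and Dcn (-0.91). Of 9 collagen receptors 3 rose, including Ddr2 (20.4 to 41.9 CPM, 0.97) and Itga1 (0.78), and 3 fell. Of 11 TGF-beta ligands, receptors and targets 6 rose and 2 fell, with Tgfbr2 (0.63) and Tgfb1 (0.61) higher and Ccn1 lower (-0.74).

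Cell type markers moved with Tat as well. Microglia markers were higher for 7 of 11 and lower for 0, with summed levels of 835 to 2657 CPM without and 751 to 5310 CPM with Tat. Astrocyte markers were higher for 2 and lower for 4 of 10, with summed levels of 5487 to 13408 CPM (median 11300.1) without and 6578 to 10327 CPM (median 8766) with Tat. Precursor markers were called for 0 of 4 (limma, 0 at an unadjusted p under 0.05), with median sums of 655 and 546 CPM. Neuron markers were lower for 8 of 11 (2798 to 5263 CPM without, 1477 to 4861 with). Fibroblast markers, the list nearest to the known collagen producers, were higher for 1 (Thbs2) and lower for 3 of 12. They summed to 161 to 527 CPM (median 305) without and 208 to 514 CPM (median 374) with Tat. Mural markers were split by gene, with 4 higher and 4 lower of 9. Their sums were 148 to 1292 CPM (median 908) without and 379 to 832 CPM (median 545) with Tat. In the Amlexanox background the mean mural sum was 394 CPM without and 419 CPM with Tat. Endothelial markers were called for 0 of 6 tested (limma, 0 at an unadjusted p under 0.05), at 7.64 to 17.4 and 6.32 to 16 CPM. The part of these shifts in the collagen results was not tested.

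4OI called more collagen genes lower than higher. Over 3 backgrounds (Control, Tat and Tat-Cocaine, 9 libraries with against 9 without), 3 collagen genes were higher and 8 lower, 34.4% of 32 against 22.8% of all genes (11% higher and 11.8% lower), with medians of -0.21 and 0.01. These comparisons use the same Tat libraries as those above, so the 2 sets of values are not independent. Col9a3 was the clearest, at 3.40 to 25.5 CPM (median 19.9) without and 3.96 to 9.86 CPM (median 5.42) with 4OI, a log2 fold change of -1.18 (95% CI -1.47 to -0.88, FDR 1.57e-07). Col6a1 (68.8 to 36.8 CPM, -1.01, FDR 0.000338) and Col6a2 (183 to 116 CPM, -0.71, FDR 0.000403) also fell, as did Col5a3 (28.3 to 20 CPM, -0.51, FDR 8.8e-05) and Col18a1, the precursor of endostatin (36.2 to 20.4 CPM, -0.78, FDR 0.00373). Col4a5 (121 to 159 CPM, 0.43, FDR 0.00189), Col11a1 (63.8 to 87.7 CPM, 0.50, FDR 0.00733) and Col11a2 (8.01 to 12.4 CPM, 0.75, FDR 0.0151) rose.

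The calls of Col4a1 (207 to 112 CPM, -0.78, FDR 0.0217), Col1a1 (-0.98, FDR 0.0383) and Col8a2 (-0.60, FDR 0.0397) over 3 backgrounds were less firm. Col4a1 lost its call without Control replicate 3, Tat-Cocaine replicate 3, Tat-4OI replicate 1 or Tat-Cocaine-4OI replicate 1, and Col1a1 and Col8a2 each lost theirs in 10 of 18 such fits. In Tat-Cocaine-4OI, replicate 2 held 299 CPM of Col1a1 and 166 CPM of Col3a1, against 50.3 and 78.7, and 7.09 and 19.2 CPM, in its companions.

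Within Tat-treated cultures, 4OI raised 2 and lowered 5 collagen genes (15.6% of all genes called). Tat-4OI libraries held 3.96, 7.2 and 5.64 CPM of Col9a3 against 23.1, 24.1 and 24.1 CPM in Tat, where Control held 3.40 to 6.14 CPM. The log2 fold change was -2.03 (95% CI -2.54 to -1.51, FDR 7.51e-07). Col14a1 was at 14.2, 56.4 and 41.5 CPM in Tat-4OI, below every Tat library (57.4 to 158 CPM) and above every Control library (4.66 to 9.26 CPM), a log2 fold change of -1.68 (FDR 0.00698). Col4a1 (-1.64, FDR 0.00882), Col6a2 (-1.17, FDR 0.00146) and Col6a1 (-1.19, FDR 0.019) were lower, and Col11a2 (1.21, FDR 0.0331) and Col4a5 (0.53, FDR 0.0384) higher. Counts here ranged from 2 to 9 on leaving out 1 library, with 2 without Tat-4OI replicate 1, 3 without Tat replicate 2 and 4 without Tat-4OI replicate 3. The Col14a1 call was lost without Tat replicate 1 (-1.39) or Tat-4OI replicate 1 (-1.11), that of Col4a1 without Tat replicate 2 or Tat-4OI replicate 1, and those of Col6a1, Col11a2 and Col4a5 in 3, 4 and 6 of 6 such fits.

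With cocaine also present (Tat-Cocaine-4OI against Tat-Cocaine), 2 genes were higher and 3 lower (7.36% of all genes). Col9a3 was at 5.62, 5.42 and 9.86 CPM against 12.9, 19.9 and 25.5 CPM, again without overlap (log2 fold change -1.41, FDR 0.000292). Col4a5 (0.74, FDR 0.00751) and Col11a1 (0.85, FDR 0.0254) were higher, and Col18a1 (-1.20, FDR 0.0276) and Col5a3 (-0.50, FDR 0.0486) lower. Without Tat-Cocaine replicate 1, Tat-Cocaine replicate 2 or Tat-Cocaine-4OI replicate 3, 3 genes were called, and the calls of Col11a1, Col18a1 and Col5a3 were lost in 3, 4 and 5 of 6 such fits.

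Without Tat, 4OI called 2 collagen genes. Against Control, 0 were higher and 2 lower (3.15% of all genes). Col5a3 fell from 24.9, 23.2 and 30 CPM to 15.1, 15.3 and 17.1 CPM (log2 fold change -0.70, FDR 0.00828), without overlap, and this call was lost without Control replicate 3 or 4OI replicate 1. Col6a1 fell from 32, 51 and 27.9 CPM to 14.4, 18.2 and 12.9 CPM (-1.23, FDR 0.0471), a call lost in each of the 6 fits without 1 library. With the replicate block Col6a2 was called too (-0.80, FDR 0.00771). Col9a3 was at 4.57, 4.01 and 4.79 CPM, inside the Control range (-0.09, 95% CI -0.60 to 0.42, FDR 0.967).

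The effect of 4OI on Col9a3 differed with and without Tat. The interaction was -1.94 on the log2 scale (95% CI -2.66 to -1.21, FDR 0.00526), the only collagen call in a comparison that called 0.497% of all genes. It held in 12 of 12 fits without 1 library. Fitted on its own 4 groups it had an FDR of 0.0515, and 0.103 on the 21 libraries of the groups without the other 3 compounds. For Col14a1 the interaction was -1.87 (95% CI -3.11 to -0.64, FDR 0.17), for Col4a1 -1.22 (FDR 0.426) and for Col6a1 0.03 (95% CI -0.98 to 1.05, FDR 0.985), and these 3 did not pass.

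Of the pathway lists, 4OI over 3 backgrounds raised 4 of 18 folding genes and lowered 1, beside 11% of all genes higher and 11.8% lower. The lower one was Creb3l1 (27.3 to 16.3 CPM, log2 fold change -0.64). It lowered Lox (47.8 to 25.9 CPM, -0.78) and Adamts14 (-0.65) and raised Bmp1 (0.28). Among matrix genes, Tnc (1.03) and Fn1 (0.68) rose and Fmod (-0.92) and Tgfbi (-0.50) fell. Ddr2 fell from 43.5 to 23 CPM (-0.83), and Tgfbr2 was lower too (-0.49). Microglia markers were lower for 9 of 11 and summed to 483 to 2030 CPM with and 1403 to 3467 CPM without 4OI. Fibroblast markers were lower for 1 of 12 (208 to 360 against 244 to 510 CPM). Mural markers were lower for 2 of 9. Their sums were 471 to 1103 CPM (median 785) with and 503 to 1252 CPM (median 641) without 4OI. Mean mural sums were 805 CPM in 4OI against 1114 CPM in Control, and 652 CPM in Tat-4OI against 673 CPM in Tat. With cocaine present they were 890 CPM in Tat-Cocaine-4OI against 540 CPM in Tat-Cocaine. The part of these markers in the collagen results was not tested.

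Amlexanox over the same 3 backgrounds called 1 collagen gene higher and 7 lower, 25.0% of 32 against 7.99% of all genes (4.12% higher and 3.88% lower), with medians of -0.33 and -0.01. Col12a1, a FACIT collagen of dense connective tissue, was at 101 to 183 CPM (median 121) without and 24.6 to 105 CPM (median 85.1) with Amlexanox, a log2 fold change of -0.79 (95% CI -1.12 to -0.46, FDR 0.00209). Col18a1 (36.2 to 20.8 CPM, -0.75, FDR 0.0147) and Col5a3 (-0.36, FDR 0.0128) also fell, and Col9a3 rose (16 to 20.9 CPM, 0.57, FDR 0.0118). Calls of Col17a1 (-0.91, FDR 0.0317), Col16a1 (-0.43, FDR 0.0371), Col5a2 (-0.39, FDR 0.0437) and Col11a1 (-0.44, FDR 0.0451) were each lost in 7 to 13 of 18 fits without 1 library. The count went down to 4 without Tat replicate 2, Tat-Cocaine replicate 2, Tat-Amlexanox replicate 1, or Tat-Cocaine-Amlexanox replicate 1 or 3, and to 5 without Tat replicate 3, Control replicate 2 or Amlexanox replicate 3.

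Amlexanox against Control alone called 1 higher and 7 lower, 25.0% against 11.4% of all genes. The decreases included 4 type IV chains. Col4a5 was at 132, 100.1 and 56.0 CPM against 150, 153 and 191 CPM (log2 fold change -0.85, FDR 0.00231), Col4a3 at 0.814, 0.679 and 0.435 CPM against 1.27, 3.14 and 3.54 CPM (-1.39, FDR 0.00313), and Col4a4 at 11.4, 9.29 and 8.47 CPM against 16.3, 23.6 and 38.6 CPM (-1.31, FDR 0.00645). None of these groups overlapped. Col4a6 (-1.09, FDR 0.00563), Col12a1 (-1.20, FDR 0.00531), Col22a1 (-1.22, FDR 0.00835) and Col11a1 (-0.93, FDR 0.0104) were lower, and Col9a3 was higher at 11.7, 10.2 and 12.0 CPM (1.16, FDR 0.00313). A single library weighed heavily here. Without Amlexanox replicate 3 only Col9a3 was called, and without Control replicate 3 only 2 genes were. Fitted on the Control and Amlexanox libraries alone, 0 of the 8 calls were left (FDR 0.228 to 0.29), and 0 of all genes were called there.

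In Tat-treated cultures the same compound called 0 collagen genes (limma, 6 at an unadjusted p under 0.05; 0.837% of all genes called), and 0 with Tat-Cocaine (5 at an unadjusted p under 0.05; 0.925%). With the replicate block, Tat-Amlexanox against Tat called 1, Col17a1 (-1.73, FDR 0.00449). Col17a1 was also called there without Tat replicate 1 (-2.54, FDR 0.00701). Tat-Cocaine-Amlexanox against Tat-Cocaine called 3 without Tat-Cocaine replicate 3. The effect of Amlexanox on Col4a5 differed with and without Tat by 0.95 on the log2 scale (95% CI 0.44 to 1.46, FDR 0.042), with -0.85 in untreated and 0.10 (95% CI -0.26 to 0.46) in Tat-treated cultures. This was the 1 collagen call in a comparison that called 1.84% of all genes, and it was lost in 9 of 12 fits without 1 library, with a value of 0.61 (FDR 0.234) without Amlexanox replicate 3. The count of collagen calls was 5 without Control replicate 1 or Amlexanox replicate 1, and 0 without 8 of the other 10 libraries.

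In the pathway lists Amlexanox called 0 genes higher over 3 backgrounds, and lowered 2 of 18 folding genes, 2 of 12 processing genes, 5 of 16 matrix genes, 2 of 9 receptors and 2 of 11 TGF-beta genes, beside 7.99% of all genes called. Among them were P4ha3 (-0.74), the collagen chaperone Serpinh1 (-0.32), Fmod (489 to 206 CPM, -1.42), Tnc (150 to 72.7 CPM, -0.91) and Ccn2 (82.8 to 46.8 CPM, -0.79). Fibroblast markers (161 to 513 with, 244 to 510 CPM without) were lower for 1 of 12, and mural markers (148 to 688 with, 503 to 1252 CPM without) for 1 of 9, Tagln. The part of the mural marker levels in the collagen results was not tested.

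The 6 backgrounds of cocaine were Control, Tat, and Tat with each of the 4 compounds (18 libraries with against 18 without). Only the Control background lacked Tat, so the pooled values mostly describe cocaine added to Tat. Over these backgrounds 4 collagen genes were called, 1 higher and 3 lower. This was 12.5% of 32 against 8.94% of all genes (2.91% higher and 6.03% lower). Medians were -0.01 for the collagens and 0.01 for all genes. Col26a1, an extracellular protein with short collagenous domains, was at 0.612 to 2.84 CPM (median 1.89) without and 0.218 to 1.40 CPM (median 0.592) with cocaine, a log2 fold change of -1.0 (95% CI -1.23 to -0.77, FDR 1.06e-06). Each cocaine library was below each matched library in 6 of 6 backgrounds. Col25a1, a transmembrane collagen made by neurons, was at 2.48 to 5.70 CPM without and 0.804 to 3.96 CPM with cocaine (-0.63, FDR 0.000626), and Col19a1, a FACIT collagen known from subsets of neurons, had means of 5.62 and 3.21 CPM (-0.70, FDR 0.00182). Both were apart in 3 of 6 backgrounds. Col9a2 was slightly higher (1.64 to 1.98 CPM, 0.22, FDR 0.0134), apart in 1 of 6. All 4 calls held in 36 of 36 fits without 1 library.

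**Figure D4:**
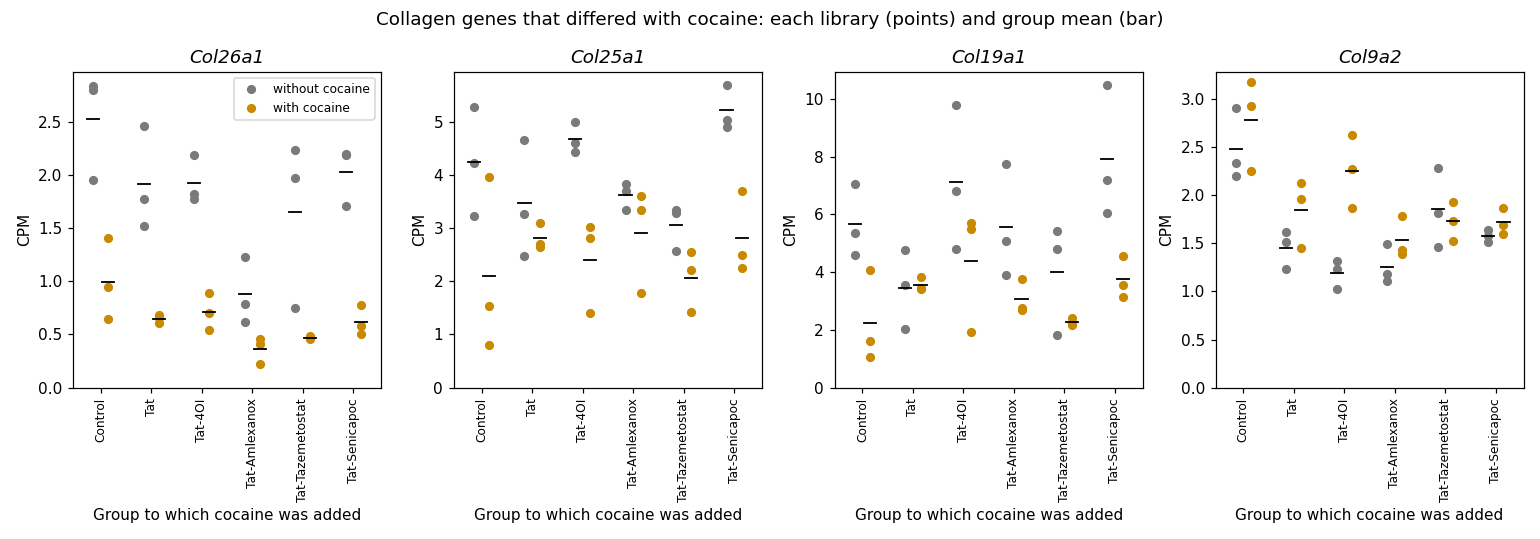
Level (CPM, linear axis from 0) of Col26a1, Col25a1, Col19a1 and Col9a2 in each library of the 6 pairs of groups with and without cocaine, with bars at group means. Col26a1 was lower in each cocaine library in 6 of 6 pairs, and Col25a1 and Col19a1 in 3 of 6.

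The single cocaine pairs tested gave no call. Cocaine against Control called 0 collagen genes (limma, 5 at an unadjusted p under 0.05; 0.201% of all genes called). Col26a1 was at 2.84, 2.79 and 1.95 CPM in Control and 0.943, 1.40 and 0.643 CPM in Cocaine, without overlap (log2 fold change -1.03, FDR 0.0869), and Col19a1 had the same FDR with -1.30. Without Cocaine replicate 1, 4 genes were called, Col25a1 (-1.52, FDR 0.000362), Col19a1 (-1.75, FDR 0.0016), Col5a3 (0.62, FDR 0.00998) and Col26a1 (-1.02, FDR 0.0284). Tat-Cocaine against Tat called 0 (3 at an unadjusted p under 0.05; 0.0189%). Neuron markers were lower with cocaine over 6 backgrounds for 4 of 11 (Gad2 -0.89, Gad1 -0.71, Tubb3 -0.70, Syt1 -0.47) and summed to 1477 to 4908 CPM without and 1217 to 4410 CPM with cocaine. No other marker list held a call, and the part of the neuron markers in the decreases of Col25a1, Col19a1 and Col26a1 was not tested.

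Tazemetostat and Senicapoc called 0 collagen genes over 3 backgrounds (limma, 3 and 10 at an unadjusted p under 0.05), beside 11.4% and 1.16% of all genes. The lowest FDR with Tazemetostat was that of Col27a1 (-0.37, FDR 0.0612), and with Senicapoc that of Col6a4 (0.35, FDR 0.131), followed by Col9a3 (0.39, FDR 0.151). Both compounds called 0 when given alone (1 and 4 at an unadjusted p under 0.05), where 0 of all genes passed. They called 0 with Tat as well (0 and 7, beside 0% and 0.409% of all genes). Tat-Senicapoc against Tat and the pooled Senicapoc comparison each called 1, Col17a1, without Tat replicate 1. Tat-Cocaine-Senicapoc against Tat-Cocaine called 0 (5 at an unadjusted p under 0.05, 0.0441% of all genes) and 1 without Tat-Cocaine replicate 3. The pooled Tazemetostat comparison called 1 without Tat-Cocaine replicate 3 or Tat-Tazemetostat replicate 1. Neither compound's effect was called different with and without Tat for any collagen gene (0 at an unadjusted p under 0.05 in both interactions). The confidence intervals of these interactions were wide. For Senicapoc, Col4a3 had a log2 value of 0.82 (interval -0.04 to 1.69). For Tazemetostat, Col14a1 had a log2 value of -0.83 (interval -2.07 to 0.40). The lack of calls therefore does not show that the effects were the same.

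Only Tat-Cocaine-Tazemetostat against Tat-Cocaine held calls, 4 lower, 12.5% of the members against 28.7% of all genes (13.4% lower). Col27a1 was at 2.80, 2.45 and 2.96 CPM against 5.28, 5.44 and 4.39 CPM (log2 fold change -0.77, FDR 0.0164) and Col8a2 at 7.05, 3.11 and 6.30 CPM against 22.2, 8.60 and 10.2 CPM (-1.19, FDR 0.0195), both without overlap. Col16a1 (93.1 to 57.9 CPM, -0.65, FDR 0.0332) and Col9a1 (0.991 to 0.256 CPM, -0.99, FDR 0.0345) were the others. The count was 0 without Tat-Cocaine replicate 1 or Tat-Cocaine-Tazemetostat replicate 2, 1 without Tat-Cocaine replicate 2, 2 without Tat-Cocaine-Tazemetostat replicate 1 and 8 without Tat-Cocaine replicate 3.

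Some collagen genes varied widely between replicates of one treatment. Col3a1, the fibrillar chain of soft connective tissue, was at 9.03, 10.7 and 208 CPM in Control, 160, 96.1 and 29 CPM in Tat and 19.7, 140 and 4.69 CPM in Cocaine. Within a group the highest library exceeded the lowest by a median of 10.3-fold and by up to 30-fold, and Col3a1 was called in none of the 30 comparisons (over 5 backgrounds of Tat 0.96, 95% CI -0.24 to 2.16, FDR 0.166). It is also uncertain because its value held such a fraction of a read in 60.4% of libraries, against 22.9% for Col20a1 and 20.8% each for Col4a3 and Col4a4. The median fold within a group was 4.58 for Col20a1, 4.39 for Col17a1, 2.89 for Col9a1 and 2.75 for Col8a1. Col1a1 (2.55) followed, with the third Control library at 204 CPM together with its 208 CPM of Col3a1. With Tat over 5 backgrounds, Col8a1 had a log2 fold change of 0.53 (95% CI 0.01 to 1.05, FDR 0.078) and Col20a1 of -0.32 (95% CI -0.95 to 0.31, FDR 0.392), neither of which passed.

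**Figure D5:**
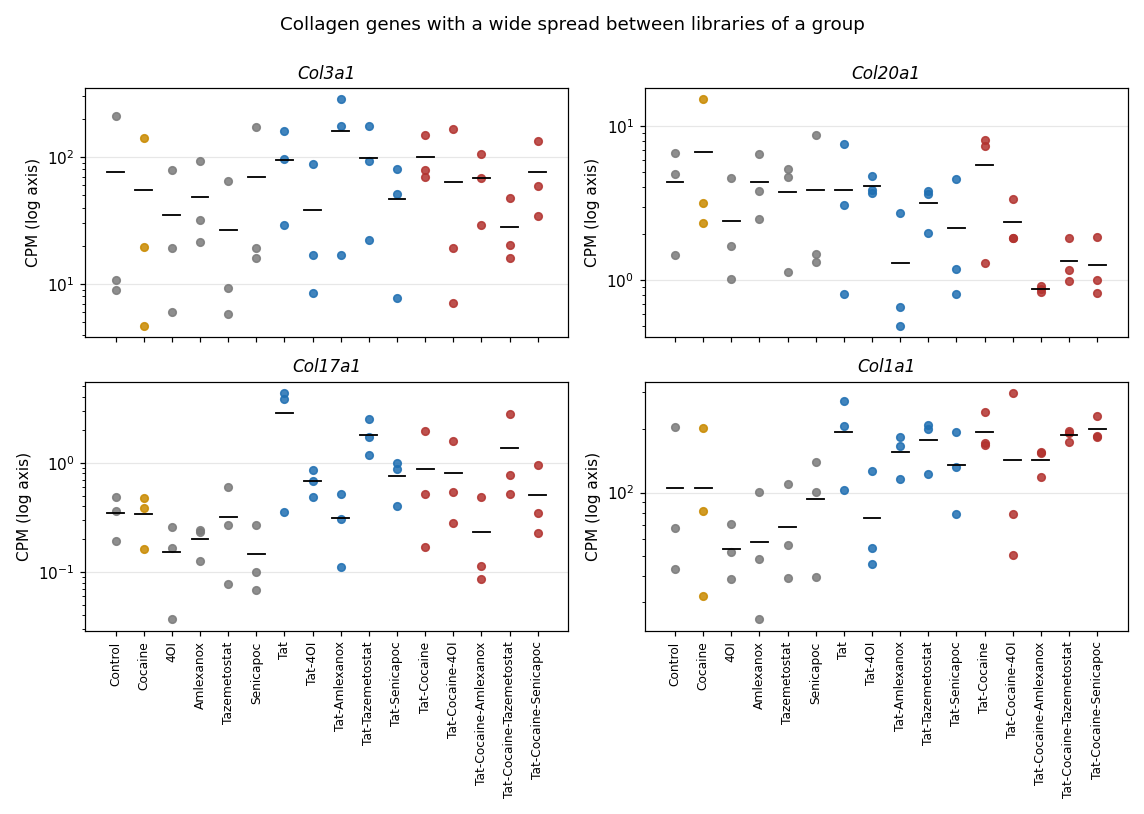
Level (CPM, log axis) of Col3a1, Col20a1, Col17a1 and Col1a1 in each library of the 16 groups, with bars at group means. Col3a1 ran from 4.69 to 283 CPM, with a median fold of 10.3 between the highest and lowest library of a group.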

How the data were processed

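The 48 libraries were strand-specific and sequenced from both ends. Per the submitters' processing notes, reads were trimmed with Trim Galore 0.4.5, aligned with STAR 2.7.2 and counted per gene with featureCounts (Subread 1.5.3). Rat builds differ between the sources used here, so no coordinates of the authors' build are given. The signal the authors deposited is CPM after TMM scaling in edgeR, with values summing to 930399 to 1046890 per library. Since only 85.0 to 87.3% of values were whole reads (within 0.02 read), count tests were not run. The authors' 16 group means and 36 comparisons (fold changes, p-values) in the table were not used.

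Groups follow the labels, and all 48 libraries entered. Values were transformed to log2(CPM + 0.5), which understates fold changes of low genes, and genes that reached 0.5 CPM in 3 or more libraries were kept (15890 genes, all 32 collagen genes among them). One model over 16 groups was fitted in limma 3.58.1 (R 4.3.3; lmFit, contrasts.fit, eBayes with a trend), 2-sided, in 30 comparisons, and FDR values are Benjamini-Hochberg adjusted over all genes tested in each comparison. Pooled comparisons average the matched pairs of groups. The step was tested on simulated data. Members and lists were chosen with earlier results of these data known. Named were the 10 members with the highest mean, members called in a pooled comparison or in Tat, Cocaine or Tat-Cocaine against Control, up to 3 per direction elsewhere, partner chains, and list genes by FDR (up to 6 a list), of which 1 is not reported here.

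Replicate numbers recur in each group. Deviations from group means correlated over 360 same-numbered pairs of libraries with a median r of 0.182 (-0.779 to 0.836), and over 720 other pairs with a median of -0.0939. Deviations within a group cancel out, so both medians are tied to each other. In 6 of 20 pairwise comparisons every same-numbered pair was over 0.1 (Tat-Cocaine, 4OI, Tazemetostat and Senicapoc against Control, Tat-Amlexanox against Tat and against Amlexanox). The labels give no pairing, and only in these 6 was the number read as one. The block was fitted over all 48 libraries at once, so calls it added do not rest on a pairing within these 6 alone. Alternatives were a pseudocount of 0.1, no minimum, quantile normalization, the replicate block, the compared groups alone, 21 libraries of 7 groups, and each library left out.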

Additional observations from a re-analysis of the deposited data

Results flagged for a closer look

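The effect of 4OI on Col9a3 differed by whether Tat was present, by -1.94 on the log2 scale (4OI effect with Tat minus without Tat, interaction in limma, FDR 0.00526). The effect of Amlexanox on Col4a5 differed in the same sense by 0.95 (FDR 0.042). The first held on leaving out any 1 of its 12 libraries, and the second was lost in 9 of 12 such fits.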

How the results depend on the processing

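Among 125 calls of collagen genes, 0 changed direction under any alternative, and 125 of 125 were kept with a pseudocount of 0.1 CPM. Quantile normalization lost 4, no minimum on low values 15, and fitting the compared groups alone 42, in a fit with fewer libraries. The 21 libraries of 7 groups kept 32 and lost 20 of the calls that could be fitted there. Fits without 1 library kept 1396 calls and lost 218.

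Counts of collagen genes called moved by more than 1.5 times in the following. With no minimum, 4OI against Control fell from 2 to 1, pooled Amlexanox from 8 to 5 and the Amlexanox interaction from 1 to 0. With quantile normalization, 4OI against Control fell to 1 and the Amlexanox interaction rose to 2. In the compared groups alone, Tat against Control gave 7, Tat-Cocaine against Control 5, 4OI against Control 0, Tat-4OI against Tat 4, Tat-Cocaine-4OI against Tat-Cocaine 1, Amlexanox against Control 0, Tat-Cocaine-Tazemetostat against Tat-Cocaine 8, Tat-4OI against 4OI 2, pooled Amlexanox 4, pooled Tazemetostat 1, and the interactions of 4OI and Amlexanox 0. In the 21 libraries of 7 groups, 4OI against Control gave 0, Tat-4OI against Tat 3, Tat-Cocaine-4OI against Tat-Cocaine 2, Tat-4OI against 4OI 1 and the 4OI interaction 0. Counts over all genes fell in each of these comparisons in the compared groups alone. They went from 3382 to 1252 for Tat against Control, 2475 to 1134 for Tat-4OI against Tat and 1170 to 113 for Tat-Cocaine-4OI against Tat-Cocaine. For Tat-Cocaine-Tazemetostat against Tat-Cocaine and pooled Tazemetostat, where collagen counts rose, they went from 4554 to 3783 and from 1811 to 591. The cause was not tested.

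With the replicate number as a block, Tat-Amlexanox against Tat gave 1 call in place of 0, and the 125 calls were all kept. Where the numbers were not read as a pairing, the block gave 1 for Cocaine against Control (Col19a1), Tat-Senicapoc against Tat (Col19a1) and pooled Tazemetostat (Col27a1). It gave 2 for the Amlexanox interaction.

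With 1 library left out, counts ranged from 20 to 23 for pooled Tat, 4 to 4 for pooled cocaine, 8 to 14 for pooled 4OI, 4 to 9 for pooled Amlexanox, and 0 to 1 for pooled Tazemetostat and pooled Senicapoc. Against Control they ranged from 9 to 13 for Tat, 0 to 4 for Cocaine, 6 to 9 for Tat-Cocaine, 0 to 1 for 4OI and 1 to 10 for Amlexanox, and were 0 to 0 for Tazemetostat and Senicapoc. Against Tat they ranged from 2 to 9 for Tat-4OI, 0 to 1 for Tat-Amlexanox and Tat-Senicapoc, and were 0 to 0 for Tat-Cocaine and Tat-Tazemetostat. Against Tat-Cocaine they ranged from 3 to 4 for Tat-Cocaine-4OI, 0 to 3 for Tat-Cocaine-Amlexanox, 0 to 8 for Tat-Cocaine-Tazemetostat and 0 to 1 for Tat-Cocaine-Senicapoc. For Tat within a compound they were 0 to 6 with 4OI, 9 to 16 with Amlexanox, 3 to 7 with Tazemetostat and 3 to 8 with Senicapoc. Interactions gave 1 to 1 for 4OI, 0 to 5 for Amlexanox and 0 to 0 for Tazemetostat and Senicapoc. Counts from fits without 1 library are given without the share over all genes. Depth limits the genes near 0.5 CPM, such as Col6a4, since 0.5 CPM stands for 8.58 to 15 reads a library.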
